A study of Mus musculus with 4 samples.

Results

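The genes described here encode the proteases that cut the extracellular matrix and the proteins that hold those proteases in check, measured as RNA in lymphatic endothelial cells of mouse embryos. They are the gene symbols that open with Mmp, Adamts, Adamtsl or Timp followed by a number, and that held at least 20 counts in at least 1 of 4 RNA libraries. Of 23337 gene symbols, 51 carried such a name and 50 passed the count minimum: 22 Mmp genes, 19 Adamts genes, 5 Adamtsl genes and 4 Timp genes. Mmp7 (matrilysin) was left out, since its highest count in any library was 18, and Mmp13 was the closest gene inside the limit, with a highest count of 20. Across the whole table, 18949 symbols reached the same minimum.

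Matrix metalloproteinases (MMPs) are zinc enzymes that are made as inactive precursors and either secreted or anchored in the cell membrane. The ADAMTS proteases are secreted zinc enzymes with thrombospondin repeats that bind the matrix, and the ADAMTS-like proteins have a similar layout without the catalytic part. Tissue inhibitors of metalloproteinases (TIMPs) block the active site of these enzymes. In the lymphatic system, ADAMTS3 and its cofactor CCBE1 cut the precursor of VEGFC into the form that activates the receptor encoded by Flt4, and MMP14 is known to shed LYVE1 from lymphatic endothelium.

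The 4 groups held 1 library each: homozygous deletion mutant cells after culture, wild type cells after culture, homozygous deletion mutant cells before culture and wild type cells before culture. Cells that lacked CD45 and bore LYVE1 and VECAD (CD144) were sorted at embryonic day 14.5 from the dorsal anterior part of embryos, and each genotype was a pool over a litter. The cultured portion of each sort spent 7 days on OP9, a mouse stromal line, with FLT3L, IL3 and SCF at 100 ng/ml each. It was then sorted again for LYVE1 and VECAD, with no exclusion of CD45 stated. The series title names a GATA2-bound enhancer, which in the published study controls Prox1, the lymphatic master regulator. The labels name neither the mouse strain nor the position of the deletion. With 1 library a group no value has a replicate, so every comparison is between libraries and no p-value is given. All intervals are 95% intervals for counting error only. Amplified read pairs are not independent molecules, so the intervals may be too narrow even for that error.

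Gene counts totalled 3931557 in mutant and 1694669 in wild type cells after culture, against 7943587 in mutant and 3987150 in wild type cells before it. Levels are given as CPM, counts divided by library size after scaling by the trimmed mean of M values (TMM). Lyve1, Flt4 and Cdh5, which mark lymphatic and vascular endothelium, lay between 890 and 3520 CPM in the 4 libraries. Of the 7 lymphatic markers measured, Mmrn1, Pdpn, Prox1 and Reln were called lower after culture in both genotypes, by the rule defined with the culture comparison, while Lyve1 was called higher in both (folds of 3.08 in mutant and 3.29 in wild type cells) and Flt4 in wild type cells. Pdpn held 8 and 0 counts in mutant and wild type cells after culture, against 915 and 435 before it. Prox1 was at 137 CPM in mutant and 207 CPM in wild type cells after culture, and at 487 CPM in mutant and 507 CPM in wild type cells before it; the deletion is of an enhancer, so these counts do not check the genotype labels. Genes that are silent outside sensory neurons also held counts. A background fitted to 1427 olfactory and vomeronasal receptor genes, from the exon length and exon number of each gene, came to 4.40% and 3.43% of gene counts in mutant and wild type cells after culture, and to 10.6% and 17.5% in mutant and wild type cells before it.

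Many members lay near this background, and a smaller set stood far above it. With a background by exon length alone, the lower bound of the count exceeded the expectation for 41 of 50 members in mutant and 35 in wild type cells after culture, and for 47 in mutant and 46 in wild type cells before it. Silent families with several exons exceeded that expectation too, so the background with the exon number is used from here on. The lower bound of the count exceeded the expected background for 34 of 50 members in mutant and 29 in wild type cells after culture, and for 40 in mutant and 35 in wild type cells before it. In the same order, 22, 22, 26 and 19 members had a lower bound that also exceeded the highest of the median ratios of observed to expected counts in 9 other silent gene families (2.5, 2.23, 2.12 and 1.68 times), a median that the ratios of single genes of that family exceed. For 15 members this held in all 4 libraries and for 19 in none. The median ratio of observed to expected counts over the 50 members was 2.52 in mutant and 2.70 in wild type cells after culture, and 2.53 in mutant and 1.70 in wild type cells before it.

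**Figure D1:**
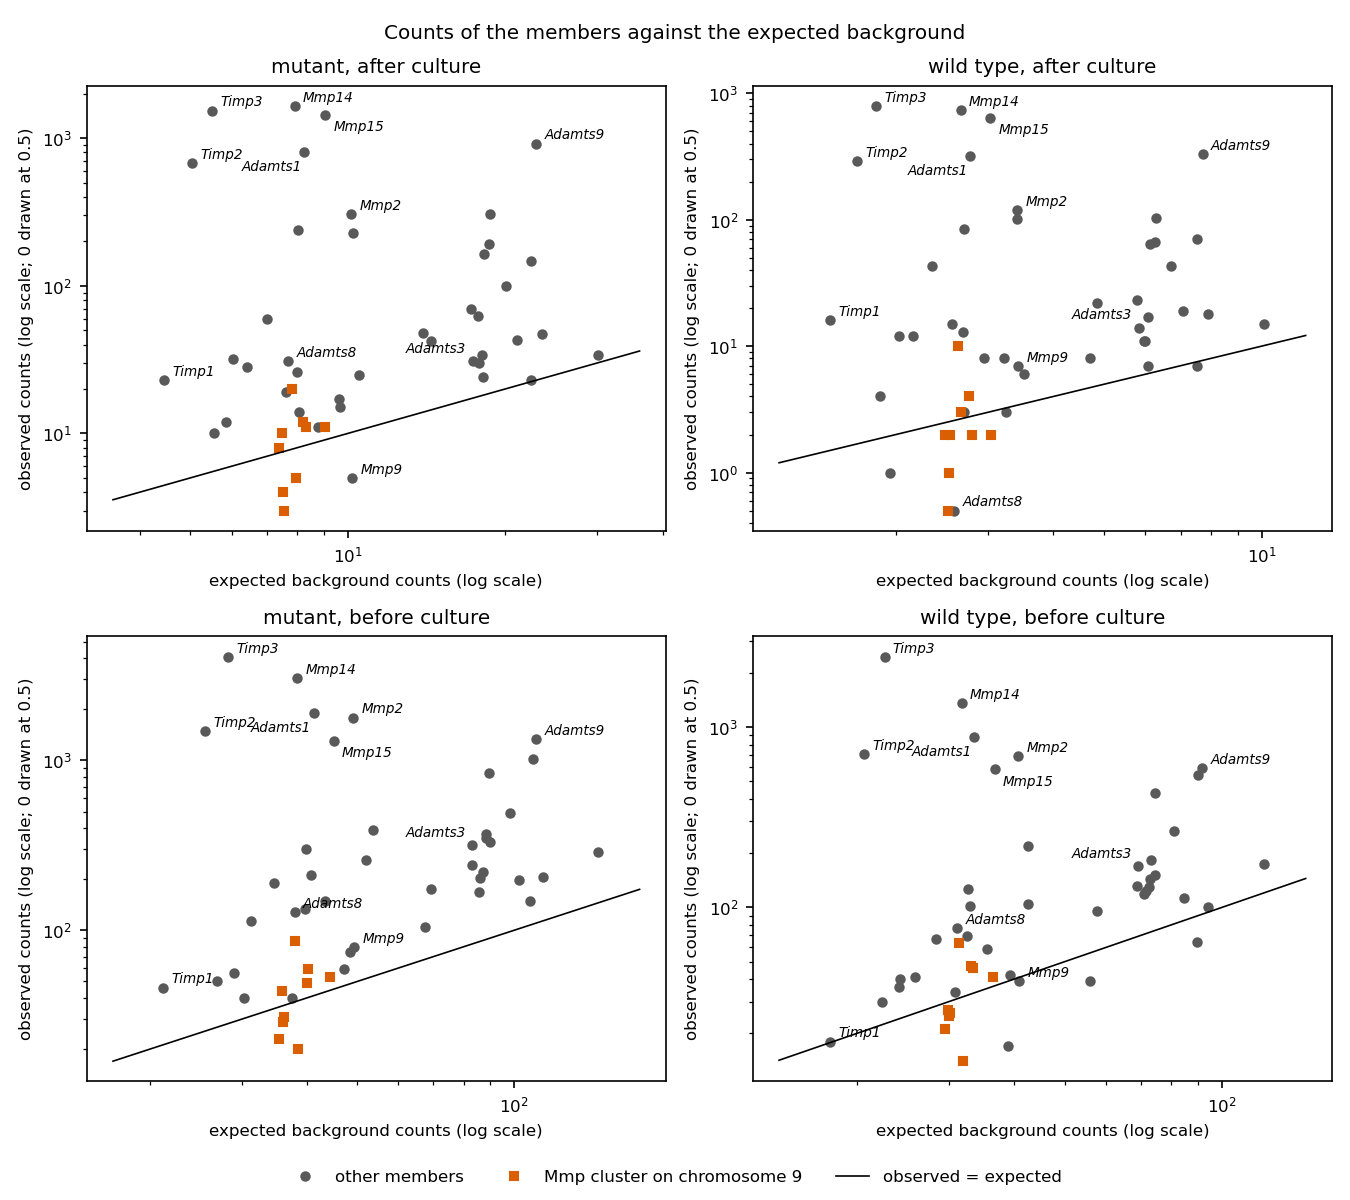
Observed counts of the 50 members on the vertical axis against the background expected from exon length and exon number on the horizontal axis, both on log scales, in each of the 4 libraries. Points on the line hold as many counts as the background predicts; Timp3, Mmp14, Mmp15 and Adamts1 lie far above it, and the orange Mmp genes of chromosome 9 lie around it.

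Expression was concentrated in a few members, among them the membrane-anchored collagenase gene Mmp14 and the inhibitor gene Timp3. Per kb of exon, the 8 highest members held 81.9% and 83.1% of the summed level of the 50 in mutant and wild type cells after culture, and 72.6% and 70.3% in mutant and wild type cells before it. The same 8 genes led in every library: Mmp14, Timp3, Mmp15, Timp2, Adamts1, Adamts9, Mmp2 and Adamts10. Mmp14 stood first, at 189 and 206 CPM per kb in mutant and wild type cells after culture, against 128 and 106 CPM per kb in mutant and wild type cells before it. Timp3 came second, at 97.3 and 122 CPM per kb in mutant and wild type cells after culture, against 93.7 and 105 CPM per kb in mutant and wild type cells before it. In wild type cells before culture the counting intervals of Mmp14 (100 to 111) and Timp3 (101 to 109) overlapped, so their order there was not resolved. Timp2 and Adamts1 held ranks 4 and 5, and their intervals overlapped in all 4 libraries.

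Mmp2 and Mmp15 changed places in this order. Mmp15 held rank 3 after culture, at 84.0 and 91.0 CPM per kb in mutant and wild type cells, and rank 6 before culture, at 27.6 and 22.9 CPM per kb in mutant and wild type cells. Mmp2 held rank 7 after culture, at 29.8 and 28.1 CPM per kb in mutant and wild type cells, and rank 3 before culture, at 62.9 and 45.1 CPM per kb in mutant and wild type cells.

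**Figure D2:**
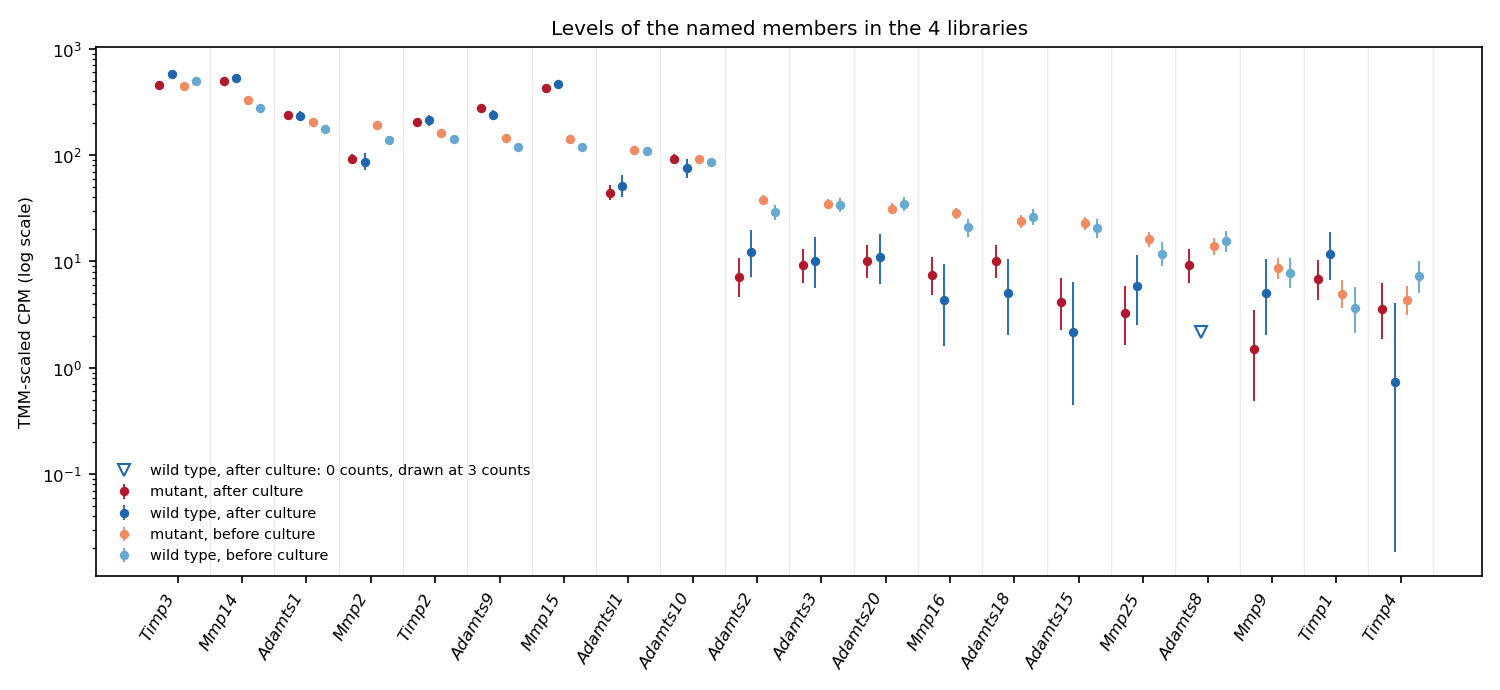
TMM-scaled CPM on a log scale for the 20 named members in the 4 libraries, with bars for the 95% counting interval. Mmp15, Mmp14 and Adamts9 sit higher in the 2 cultured libraries, whereas Adamts2, Adamts3, Mmp16 and Adamts15 sit higher in the 2 libraries made before culture; Adamts8 had 0 counts in wild type cells after culture and is drawn at 3 counts.

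Culture of the cells was the comparison in which members differed most. The rule for a call was a fold interval wholly past 2-fold, and it was applied to each gene that reached 20 counts in either library of the pair. In mutant cells after against before culture, 1 of 50 members tested was called higher (Mmp15), against 5.19% of all 18807 genes. In the same comparison 8 were called lower (Adamts2, Adamts3, Adamts15, Adamts20, Adamtsl1, Mmp9, Mmp16 and Mmp25), against 3.62% of all genes, and 8.81% of all genes were called in either direction. The median log2 fold was -0.63 over the members and -0.10 over all genes. Over the 31 members whose lower bound exceeded the highest silent family median in at least 1 library, it was 0.001. The median over all 50 thus rested largely on members near the background.

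In wild type cells, 1 of 47 members tested was called higher after culture (Mmp15), against 8.17% of all 17154 genes, and 4 were called lower (Adamts8, Adamts15, Adamts18 and Mmp16), against 5.77%; 13.9% of all genes were called in either direction. With library totals in place of TMM, which moved all log2 folds of this comparison by -0.62, 15 members were called lower. The share of all genes called with that scaling was not computed. The median log2 fold was -0.70 over the members and -0.05 over all genes. It was -0.23 over the 30 tested members that exceeded the highest silent family median in at least 1 library. Mmp15 was called higher in both genotypes, and Adamts15 and Mmp16 lower in both, which is 25% of the members called lower in mutant cells and 50% of those in wild type cells. The overlap of calls over all genes was not computed. A call made in 1 genotype and not in the other was not a tested difference. With the background subtracted, the calls were 1 higher and 6 lower in mutant cells, and 1 higher and 3 lower in wild type cells (Adamts3, Adamts15 and Adamtsl1). Over all genes, the calls with background subtracted were 818 higher and 649 lower of 18807 in mutant cells. In wild type cells they were 828 higher and 475 lower of 17154.

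The 2 culture comparisons share no library, and their folds ran largely together. Over the 47 members tested in both, Pearson's r between the log2 folds was 0.686 and Spearman's rho 0.719, as a description across genes, which are not replicates; over 17012 genes the values were 0.794 and 0.832. The folds lay on the same side of 1 for 42 of 47 members (89.4%), against 86.4% of all genes. The exceptions were Adamts10, Adamts16, Adamtsl4, Mmp11 and Mmp28. The whole interval lay above 1 in both genotypes for 8 members (Adamts1, Adamts4, Adamts5, Adamts7, Adamts9, Mmp14, Mmp15 and Timp2), and below 1 in both for 12 (Adamts2, Adamts3, Adamts8, Adamts12, Adamts13, Adamts15, Adamts18, Adamts19, Adamts20, Adamtsl1, Mmp2 and Mmp16). With background subtracted, Adamts1 and Timp2 left the higher group, Adamts13 and Adamts20 left the lower group, and Adamts10 and Timp3 joined the lower group. The share of all genes on 1 side in both genotypes was not computed. In mutant cells alone, the interval lay above 1 for 9 of 50 members and below 1 for 19, against 6097 and 5077 of 18807 genes. In wild type cells it was 10 and 20 of 47 members, against 5812 and 4691 of 17154 genes.

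**Figure D3:**
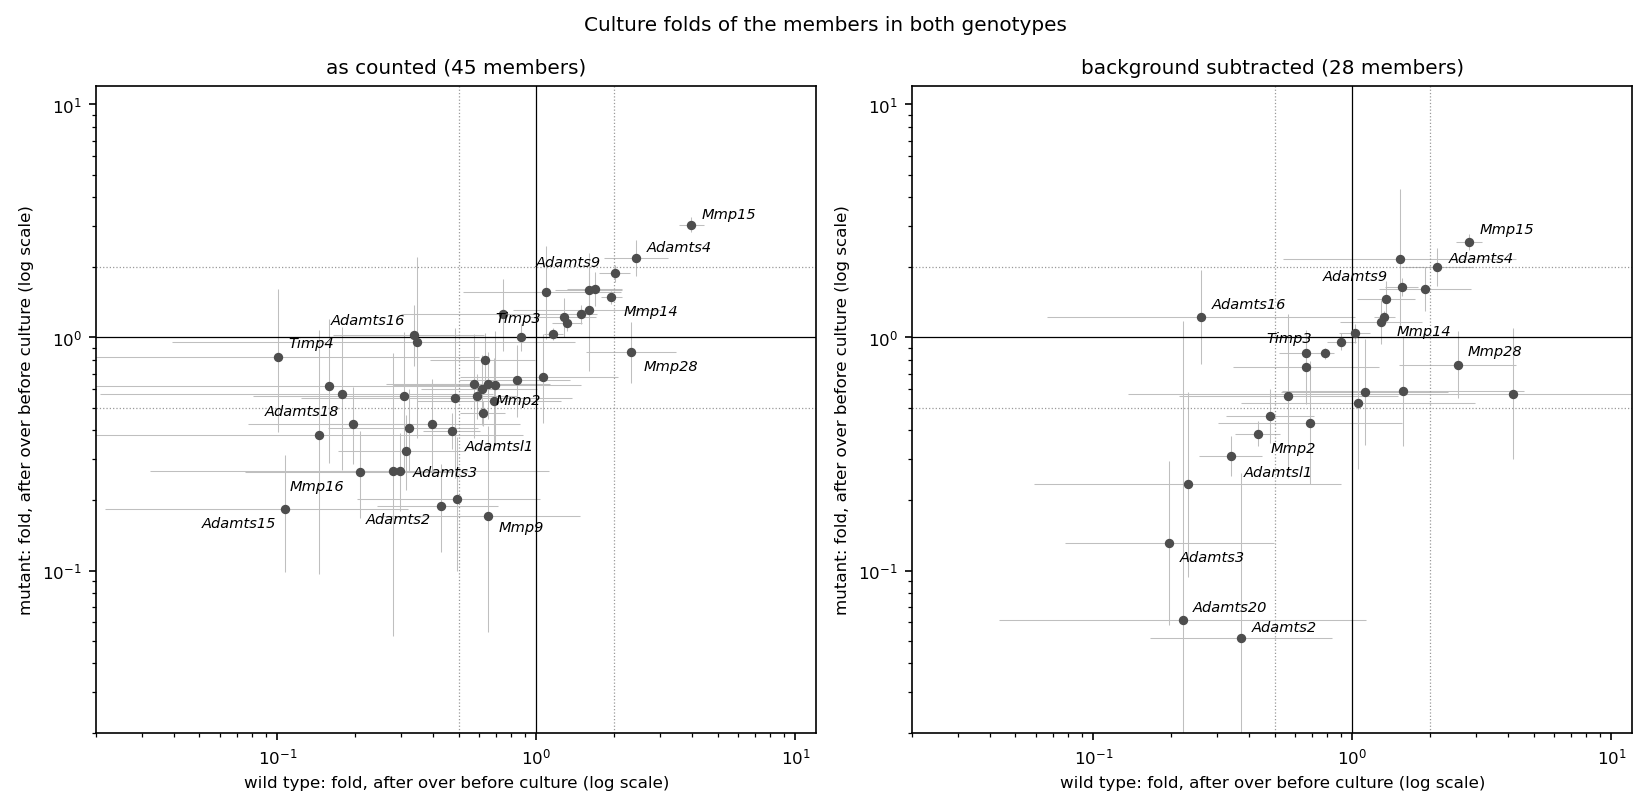
Fold of each member after over before culture in mutant cells (vertical) against the same fold in wild type cells (horizontal), both on log scales, as counted on the left (45 members) and with background subtracted on the right (28 members), with 95% counting intervals. Dotted lines mark 2-fold; Mmp15 is the highest point in both panels, and Adamts3 lies at the lower left in both.

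Among the 6 membrane-type MMPs, Mmp15 was called higher after culture in both genotypes, Mmp16 lower in both and Mmp25 lower in mutant cells. Mmp15, which encodes an anchored protease that like Mmp14 can activate the precursor of MMP2, had 432 CPM in mutant and 467 CPM in wild type cells after culture, against 142 CPM in mutant and 118 CPM in wild type cells before it. Both cultured libraries lay above both earlier ones. The fold was 3.04 (2.82 to 3.28) in mutant cells and 3.96 (3.54 to 4.44) in wild type cells, or 2.57 and 2.82 with background subtracted.

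Mmp14 had 492 CPM in mutant and 534 CPM in wild type cells after culture, against 331 CPM in mutant and 274 CPM in wild type cells before it. The fold was 1.49 (1.40 to 1.58) in mutant and 1.95 (1.78 to 2.13) in wild type cells, above 1 and short of a call. Mmp16 had 25 and 6 counts in mutant and wild type cells after culture, against 261 and 104 counts in mutant and wild type cells before it, with folds of 0.264 (0.168 to 0.398) in mutant and 0.209 (0.0750 to 0.471) in wild type cells. With background subtracted the Mmp16 call stood in mutant cells and was lost in wild type cells. Mmp25, whose product is held by a lipid anchor and is best known from neutrophils, had 11 and 8 counts in mutant and wild type cells after culture and 149 and 59 counts in mutant and wild type cells before it. Its fold was 0.203 (0.0994 to 0.375) in mutant cells, and with background subtracted the call was lost. The neutrophil list (S100a8 and 5 others) summed to 15.3 and 20.4 CPM in mutant and wild type cells after culture, and to 23.0 and 32.1 CPM in mutant and wild type cells before it. None of the 4 neutrophil markers measured was called in either culture comparison. Mmp17 and Mmp24 held at most 134 counts and were not called where tested.

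The gelatinases, which cut denatured collagen and basement membrane collagen, lay below their earlier level after culture in mutant cells, where Mmp9 was called. Mmp2 had 91.8 CPM in mutant and 86.6 CPM in wild type cells after culture, against 194 CPM in mutant and 139 CPM in wild type cells before it. Its folds were 0.474 (0.418 to 0.535) in mutant and 0.623 (0.509 to 0.758) in wild type cells, so neither was called, but with background subtracted the mutant fold of 0.386 (0.341 to 0.438) was. Mmp9 had 5 and 7 counts in mutant and wild type cells after culture and 80 and 39 counts in mutant and wild type cells before it. Its ratio of observed to expected counts was 2.04 or less in every library, so the call in mutant cells, a fold of 0.172 (0.0544 to 0.419), concerned a gene near the background and was lost with the background subtracted.

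Markers of some other cell types also differed after culture. A list of 12 stromal and fibroblast markers, Col3a1 and Col1a1 among them, summed to 1050 and 1250 CPM in mutant and wild type cells after culture. Before culture the sums were 5430 and 3410 CPM in mutant and wild type cells. Of the 12, 9 were called lower in mutant and 8 in wild type cells. The markers of this list that were not called had folds of 0.736 to 1.04 in mutant and 0.636 to 1.57 in wild type cells. Lum was at 0 counts in wild type cells after culture and Dpt in both cultured libraries. The 8 cartilage markers measured summed to 287 and 255 CPM in mutant and wild type cells after culture and to 1260 and 861 CPM in mutant and wild type cells before it, with 6 called lower in each genotype. Of 5 skeletal muscle markers, 5 were called lower in mutant and 3 in wild type cells. The 6 adipocyte markers summed to 377 and 579 CPM in mutant and wild type cells after culture, against 55.4 and 63.2 CPM in mutant and wild type cells before it. Of them, 2 were called higher in mutant cells (Fabp4 and Plin1) and 5 in wild type cells. Fabp4 alone made up most of both sums after culture, at 335 and 394 CPM in mutant and wild type cells. Before culture it was at 30.1 and 37.7 CPM. Of 6 endothelial markers 5 were called higher in both genotypes. Of 6 smooth muscle and pericyte markers, 2 were called higher (Acta2 and Rgs5) and 1 lower in both. Of 7 macrophage markers measured, 0 were called in mutant cells and 1 was called lower in wild type cells. The stromal list also covers the OP9 feeder line, and Col1a1 was at 329 and 374 CPM in mutant and wild type cells after culture. In sorted bulk cells, fewer cells of a type and less RNA per cell cannot be told apart. The part of other cell types, OP9 cells included, was not tested for the lower members, such as Mmp2, Mmp16 and Adamts2. Nor was it tested for the higher ones, such as Mmp15, Mmp14 and Adamts9.

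The genes of the Mmp cluster, which encode secreted collagenases, stromelysins and an elastase, lay near the background. The cluster lies at chr9:7272514-7699585 of mm10 and spans 427.1 kb with 10 Mmp genes and no other symbol of the tables, in the order Mmp13, Mmp12, Mmp1b, Mmp3, Mmp1a, Mmp10, Mmp8, Mmp27, Mmp20 and Mmp7. Together the 10 genes held 86 and 27 counts in mutant and wild type cells after culture, where the background predicted 75.9 and 25.5. Before culture they held 412 and 328 counts in mutant and wild type cells, where it predicted 366 and 304. The lower bound exceeded the expectation for 1 gene in mutant and 1 in wild type cells after culture, and for 2 in mutant and 3 in wild type cells before it, with Mmp8 among them in all 4 libraries. None of the 10 had a lower bound above the highest silent family median in any library. The highest ratio was that of Mmp8, the neutrophil collagenase gene, at 2.55 and 3.80 times the expectation in mutant and wild type cells after culture and at 2.30 and 2.01 times in mutant and wild type cells before it. Mmp1a and Mmp1b are related genes, and how well their reads could be told apart was not checked, so their separate counts may be uncertain. The cluster was singled out after its values had been seen.

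The promoters of this cluster differed in letters from those of the other members, and a few of each kind are shown for that reason. RefSeq entries on GRCm38.p6, the assembly of mm10, were found for 35 members, in 37 windows, and the 250 bases before each start were searched on both strands for 5 motifs. The AP-1 motif TGANTCA was present in 7 of 10 windows of the cluster, in 0 of 27 windows of the other members and in 6.75% of 32851 windows of all genes. The TATA box TATAAA was present in 6 of the 10 cluster windows, in 3 of the 27 others and in 12.4% of all. The GC box GGGCGG was present in 0 of 10 cluster windows, in 20 of the 27 others and in 32.7% of all. The GATA motif GATAAG was found in 1 member window, that of Mmp27, and in 6.55% of all, and the ETS motif CCGGAAG in no member window and in 6.91% of all. The median GC content was 40.2% in the cluster and 64.4% in the other windows. Such matches describe letters and show no binding.

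The windows of Mmp15 (called higher after culture), Timp3 (the highest inhibitor gene) and Adamts3 (called lower after culture in mutant cells) are given with GC boxes in capitals, 5′ to 3′ on the strand of the gene; in all 3 the box reads CCGCCC, so that GGGCGG is on the other strand. They lie at chr8:95352046-95352295 (Mmp15, plus strand), chr10:86300162-86300411 (Timp3, plus strand) and chr5:89883335-89883584 (Adamts3, minus strand) of GRCm38.p6.
Mmp15: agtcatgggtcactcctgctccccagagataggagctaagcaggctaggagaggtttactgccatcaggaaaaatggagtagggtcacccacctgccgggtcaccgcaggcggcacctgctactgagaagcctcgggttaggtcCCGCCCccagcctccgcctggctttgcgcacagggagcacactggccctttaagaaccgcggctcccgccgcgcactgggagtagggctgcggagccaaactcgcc
Timp3: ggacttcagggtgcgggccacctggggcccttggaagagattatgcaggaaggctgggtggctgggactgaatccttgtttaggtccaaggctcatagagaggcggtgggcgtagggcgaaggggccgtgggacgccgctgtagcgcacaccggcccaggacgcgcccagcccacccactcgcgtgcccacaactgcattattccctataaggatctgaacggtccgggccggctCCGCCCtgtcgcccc
Adamts3: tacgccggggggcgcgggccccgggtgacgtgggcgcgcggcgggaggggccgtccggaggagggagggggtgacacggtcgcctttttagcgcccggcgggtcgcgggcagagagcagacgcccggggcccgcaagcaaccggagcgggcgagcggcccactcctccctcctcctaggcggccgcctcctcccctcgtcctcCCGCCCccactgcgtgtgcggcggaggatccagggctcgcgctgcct

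The windows of 3 genes of the cluster are given with AP-1 motifs and TATA boxes in capitals. In each of the 3, the AP-1 motif precedes the TATA box. They lie at chr9:7272264-7272513 (Mmp13, plus strand), chr9:7445572-7445821 (Mmp3, plus strand) and chr9:7502092-7502341 (Mmp10, plus strand) of GRCm38.p6.
Mmp13: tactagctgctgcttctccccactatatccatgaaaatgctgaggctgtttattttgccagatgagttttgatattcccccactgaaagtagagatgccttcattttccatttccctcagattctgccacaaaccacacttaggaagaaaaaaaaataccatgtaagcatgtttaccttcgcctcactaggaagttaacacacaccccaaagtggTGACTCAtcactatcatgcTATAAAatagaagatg
Mmp3: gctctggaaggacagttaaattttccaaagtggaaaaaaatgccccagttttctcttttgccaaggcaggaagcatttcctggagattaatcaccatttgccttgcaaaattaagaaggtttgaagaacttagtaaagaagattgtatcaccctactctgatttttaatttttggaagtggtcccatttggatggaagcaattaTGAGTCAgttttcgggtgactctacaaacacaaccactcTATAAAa
Mmp10: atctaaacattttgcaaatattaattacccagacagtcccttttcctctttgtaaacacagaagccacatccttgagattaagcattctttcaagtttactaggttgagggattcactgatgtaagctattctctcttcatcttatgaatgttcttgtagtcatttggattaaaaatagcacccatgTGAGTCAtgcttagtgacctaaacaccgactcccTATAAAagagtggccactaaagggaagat

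The remaining MMP genes outside the cluster were low. Mmp28 (epilysin) had 60 and 43 counts in mutant and wild type cells after culture and 191 and 67 counts in mutant and wild type cells before it. Mmp11 (stromelysin 3) had 28 and 12 counts in mutant and wild type cells after culture, against 114 and 41 counts in mutant and wild type cells before it. Mmp19, Mmp21 and Mmp23 held at most 56 counts in any library and were not called in the comparisons where they reached the count minimum.

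The ADAMTS genes whose products cut proteoglycans such as versican and aggrecan had culture folds on both sides of 1, with Adamts15 called lower in both genotypes, Adamts20 in mutant and Adamts8 in wild type cells. Adamts9, which encodes a secreted versican protease, had 274 CPM in mutant and 239 CPM in wild type cells after culture, against 145 CPM in mutant and 119 CPM in wild type cells before it. Its fold was 1.89 (1.73 to 2.05) in mutant and 2.0 (1.75 to 2.30) in wild type cells, short of a call in each. Adamts4, an aggrecanase gene, had 71.5 CPM in mutant and 61.8 CPM in wild type cells after culture, against 32.6 CPM in mutant and 25.5 CPM in wild type cells before it, folds of 2.19 (1.84 to 2.61) and 2.43 (1.82 to 3.22) in mutant and wild type cells whose intervals reached below 2. Both cultured libraries lay above both earlier ones for Adamts9 and Adamts4.

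Adamts1 and Adamts5, another pair of proteoglycan proteases, are neighbours on chromosome 16. Adamts1 had 239 CPM in mutant and 232 CPM in wild type cells after culture, against 207 CPM in mutant and 177 CPM in wild type cells before it. Its folds of 1.16 (1.06 to 1.26) in mutant and 1.31 (1.15 to 1.49) in wild type cells lay below 1 with library totals in place of TMM (0.848 and 0.852), so no direction is given. Adamts5 had 67.6 CPM in mutant and 74.2 CPM in wild type cells after culture, against 42.0 CPM in mutant and 44.2 CPM in wild type cells before it.

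Adamts15 and Adamts8, neighbours on chromosome 9 at chr9:30899155-30922452 and chr9:30942562-30963838 of mm10, both held at most 31 counts after culture. Adamts15, a versican and aggrecan protease gene, had 14 and 3 counts in mutant and wild type cells after culture, against 211 and 102 counts in mutant and wild type cells before it. Its folds were 0.183 (0.0982 to 0.314) in mutant and 0.107 (0.0216 to 0.321) in wild type cells, called as counted and with background subtracted. Adamts8, which encodes a protease known to inhibit new vessel growth in assays, had 31 and 0 counts in mutant and wild type cells after culture, against 128 and 77 counts in mutant and wild type cells before it. The upper bound of the wild type fold was 0.178; with 3 counts in place of 0 the fold was 0.141 (0.0285 to 0.429), and the call was lost with background subtracted. The mutant fold was 0.667 (0.435 to 0.994). Adamts20, a protease gene known from the belted mouse, had 34 and 15 counts in mutant and wild type cells after culture. Before culture it had 288 and 174 counts in mutant and wild type cells, and its counts were at most 1.98 times the expected background. Its mutant fold of 0.325 (0.221 to 0.465) was called lower, and the call was lost with background subtracted.

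The procollagen N-proteinases, which trim fibrillar procollagens and in the case of ADAMTS3 the VEGFC precursor, had 2 of 3 members called lower after culture in mutant cells and none in wild type cells. Adamts3 had 31 and 14 counts in mutant and wild type cells after culture, against 318 and 170 counts in mutant and wild type cells before it. This is 9.27 CPM in mutant and 10.2 CPM in wild type cells after culture, against 34.5 CPM in mutant and 34.1 CPM in wild type cells before it, so the libraries separated by culture and not by genotype. The fold was 0.269 (0.179 to 0.389) in mutant and 0.298 (0.160 to 0.515) in wild type cells, and 0.131 and 0.197 with background subtracted, where both were called lower. The cultured libraries held 1.79 and 2.40 times the expected background in mutant and wild type cells, and the earlier ones 3.83 and 2.46 times.

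Adamts2 had 24 and 17 counts in mutant and wild type cells after culture, against 348 and 144 counts in mutant and wild type cells before it. The mutant fold was 0.19 (0.120 to 0.287) and the wild type fold 0.428 (0.243 to 0.709), the first called lower. Adamts14 had 70 and 23 counts in mutant and wild type cells after culture and 242 and 132 counts in mutant and wild type cells before it, folds of 0.797 (0.602 to 1.04) and 0.632 (0.387 to 0.989) in mutant and wild type cells that were not called.

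Of the other ADAMTS genes, Adamts10, known from fibrillin microfibrils, was the most abundant. It had 92.1 CPM in mutant and 74.9 CPM in wild type cells after culture, against 92.0 CPM in mutant and 86.3 CPM in wild type cells before it. The intervals of its folds held 1 in both genotypes as counted and lay below 1 in both with background subtracted. Adamts18 had 34 and 7 counts in mutant and wild type cells after culture, against 220 and 130 counts in mutant and wild type cells before it, and its wild type fold of 0.195 (0.0770 to 0.414) was called lower as counted and not with background subtracted. Adamts7 and Adamts12, which cut cartilage oligomeric matrix protein, had folds on opposite sides of 1, none of them called: the folds of Adamts7 were 1.59 (1.33 to 1.91) and 1.60 (1.18 to 2.14) in mutant and wild type cells, and those of Adamts12 were 0.561 (0.448 to 0.697) and 0.590 (0.417 to 0.817). Adamts13, the von Willebrand factor protease gene, was at most 1.39 times the expected background. Adamts6, Adamts16, Adamts17 and Adamts19 held 11 to 368 counts and were not called.

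Among the ADAMTS-like genes, Adamtsl1 (punctin) was the highest. It had 44.3 CPM in mutant and 51.7 CPM in wild type cells after culture, against 111 CPM in mutant and 109 CPM in wild type cells before it. The folds were 0.399 (0.333 to 0.474) in mutant and 0.473 (0.364 to 0.607) in wild type cells, called lower in mutant cells, and in both genotypes with background subtracted (0.310 and 0.339). Adamtsl2, Adamtsl3, Adamtsl4 and Adamtsl5 held at most 206 counts and were not called where tested.

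None of the 4 inhibitor genes was called after culture in mutant cells, and none of the 3 tested in wild type cells, where Timp1 missed the count minimum. Timp3, which encodes the inhibitor that binds the matrix and also blocks ADAMTS enzymes, had 459.6 CPM in mutant and 575 CPM in wild type cells after culture, against 443 CPM in mutant and 494 CPM in wild type cells before it. Its folds were 1.04 (0.979 to 1.10) in mutant and 1.16 (1.07 to 1.26) in wild type cells, but 0.854 and 0.784 with background subtracted, so its direction depended on the scaling. Timp2, whose product takes part in the activation of MMP2 by MMP14 as well as in its inhibition, had 203 CPM in mutant and 212 CPM in wild type cells after culture, against 161 CPM in mutant and 143 CPM in wild type cells before it. Its folds of 1.26 (1.15 to 1.38) in mutant and 1.49 (1.29 to 1.71) in wild type cells passed below 1 with library totals (0.924 and 0.966).

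Timp1, which encodes a secreted inhibitor of most soluble MMPs, and Timp4 held few counts. Per kb, Timp1 held rank 12 of 50 in mutant and 10 in wild type cells after culture, and rank 16 in mutant and 26 in wild type cells before it, while Timp4 was at rank 47 or lower in every library. Timp1 had 23 and 16 counts in mutant and wild type cells after culture and 46 and 18 counts in mutant and wild type cells before it. Timp4 had 12 and 1 counts in mutant and wild type cells after culture and 40 and 36 counts in mutant and wild type cells before it. Timp1, Timp3 and Timp4 each lie inside a synapsin gene on the other strand (Syn1, Syn3 and Syn2), and the strand setting of the counting is not given in the sources used here, so reads of a host gene cannot be told apart from theirs if strand was ignored.

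Other genes of the pathway were described from lists. Beside their culture calls stand the shares over all genes. These were 5.19% higher and 3.62% lower in mutant cells, and 8.17% higher and 5.77% lower in wild type cells. Of 9 activators and their receptors, 3 were called higher in both genotypes after culture and 1 lower. The higher ones were Furin, a convertase that activates membrane-type MMPs, with folds of 2.50 (2.28 to 2.74) in mutant and 3.83 (3.35 to 4.39) in wild type cells, Bsg, an inducer of MMPs, and Plaur, the urokinase receptor gene. Pcsk6, another convertase gene, had folds of 0.0784 (0.0608 to 0.0996) in mutant and 0.0445 (0.0248 to 0.0737) in wild type cells. Of 12 other inhibitors and clearance genes, A2m, which encodes the protease trap alpha-2-macroglobulin, was called higher in both genotypes, and Serpine2 and Thsd4 lower in both. A2m had 342 and 156 counts in mutant and wild type cells after culture and 155 and 104 counts in mutant and wild type cells before it.

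In the VEGFC processing list of 6 measured genes, Adamts3 was called lower in mutant cells and Ccbe1 in wild type cells, while Flt4 was called higher in wild type cells. Ccbe1 had 29 and 3 counts in mutant and wild type cells after culture, against 136 and 78 counts in mutant and wild type cells before it. In wild type cells this was 0.864 times the expected background after culture and 1.85 times before it. The call thus concerned a gene near the background. Vegfc had 63 and 36 counts in mutant and wild type cells after culture, against 83 and 56 counts in mutant and wild type cells before it, with folds of 2.09 (1.48 to 2.94) and 2.33 (1.49 to 3.61) in mutant and wild type cells that were not called.

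Of 14 other metzincins, 4 were called higher and 4 lower after culture in mutant cells, and 3 higher and 3 lower in wild type cells. Adam15, a membrane sheddase gene of endothelium, had folds of 5.32 (4.72 to 6.0) in mutant and 6.88 (5.70 to 8.31) in wild type cells, and Bmp1, the procollagen C-proteinase gene, 0.305 (0.255 to 0.363) in mutant and 0.288 (0.209 to 0.390) in wild type cells. Adam19 had folds of 3.37 (3.14 to 3.62) in mutant and 4.32 (3.87 to 4.82) in wild type cells. Of 16 substrate genes, 4 were called higher and 6 lower in mutant cells, and 4 higher and 5 lower in wild type cells. The higher ones were Col4a1, Col4a2 and Hspg2, which encode basement membrane components, and Fn1, which encodes fibronectin, in both genotypes. Fn1 had folds of 4.01 (3.94 to 4.09) in mutant and 5.06 (4.92 to 5.20) in wild type cells, and Hspg2 of 5.82 (5.69 to 5.96) in mutant and 8.03 (7.76 to 8.32) in wild type cells. No gene of these 5 pathway lists was called between genotypes, where 0.0634% of all genes were called before culture and 0.317% after it.

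Mutant against wild type libraries address how the enhancer deletion alters these cells, and before culture no member was called. Of 50 members tested, 0 were called higher and 0 lower, where 0.0158% and 0.0475% of all 18934 genes were called (0.0634% in either direction). The folds lay between 0.576 and 1.88, with a median log2 fold of 0.01 over the members and 0.04 over all genes. The interval lay above 1 for 13 of 50 members and below 1 for 4 (Adamts16, Mmp1a, Timp3 and Timp4). Among all 18934 genes it lay above 1 for 3333 and below 1 for 1617. With background subtracted the member counts became 6 and 1.

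Mmp2 was among the 13, with a mutant over wild type fold of 1.40 (1.28 to 1.52). Mmp14 had a fold of 1.21 (1.13 to 1.29), Mmp15 of 1.2 (1.09 to 1.33) and Adamts2 of 1.31 (1.07 to 1.60). With background subtracted the intervals of Mmp14 (0.958 to 1.09) and Mmp15 (0.937 to 1.15) held 1, and those of Mmp2 and Adamts2 did not. Adamts3 had a fold of 1.01 (0.837 to 1.23) and Adamts8 of 0.899 (0.672 to 1.21). The stromal marker list had a median log2 fold of 0.62 in this comparison and the cartilage list of 0.55, and their part in the folds of Mmp2 and Adamts2 was not tested.

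After culture, 1 of 34 members tested was called higher in mutant than in wild type cells (Adamts8), against 0.244% of all 12309 genes, and none was called lower, against 0.0731%; 0.317% of all genes were called in either direction. The median log2 fold was -0.01 over the members and 0.00 over all genes. Adamts8 had 31 counts in mutant and 0 counts in wild type cells, where the interval for 0 counts reached 2.68 CPM. The lower bound of the fold was 3.25, but with 3 counts in place of 0 (2.18 CPM) the fold was 4.25 (1.33 to 21.7), and with background subtracted the fold was 3.28 (0.963 to 11.2), so the call depended on how the count of 0 was treated. Some mast cell and adipocyte markers also separated the cultured libraries. Of 4 mast cell markers measured, 3 were called lower in mutant cells, as were 3 of 5 adipocyte markers. Cpa3, a mast cell protease gene, had 1.5 CPM in mutant and 49.5 CPM in wild type cells. Adipoq, an adipocyte gene, had 12.9 and 54.6 CPM. The mast cell marker not called lay the other way, at 94.8 CPM in mutant and 62.6 CPM in wild type cells. The part of such cells in the level of Adamts8 was not tested.

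Besides Adamts8, the interval lay above 1 after culture for Adamts9, Adamts16 and Adamtsl4, and below 1 for Mmp28 and Timp3. That is 4 of 34 members above 1 and 2 below, against 1167 and 1520 of all 12309 genes. Timp3 was the member with the interval below 1 both after culture, with a fold of 0.80 (0.734 to 0.873), and before it, with a fold of 0.896 (0.852 to 0.942). Adamts9 was the one with the interval above 1 in both, at 1.15 (1.01 to 1.31) after culture and 1.22 (1.11 to 1.35) before it, but with background subtracted the interval before culture held 1 (0.995 to 1.24). The other 28 members tested after culture had intervals that held 1, which at these counts does not show that the genotypes were alike; for Adamts3 the interval ran from 0.470 to 1.85.

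**Figure D4:**
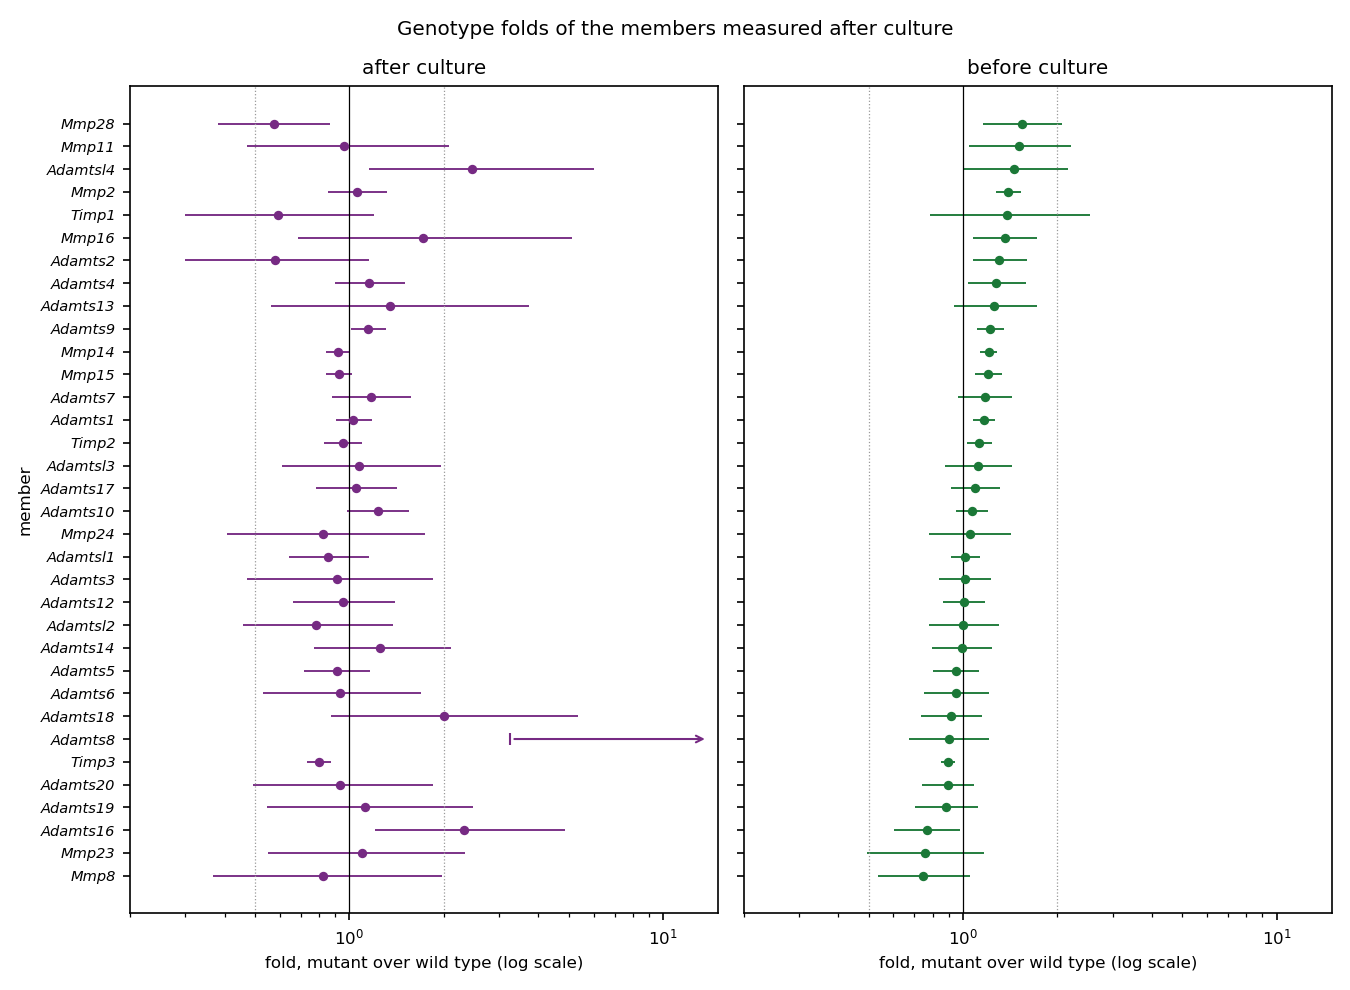
Fold of mutant over wild type cells for the 34 members tested after culture, on a log axis, after culture on the left and before culture on the right, with 95% counting intervals; dotted lines mark 2-fold. Before culture no interval lies wholly beyond 2-fold, and after culture that of Adamts8 does, drawn as an arrow because wild type cells had 0 counts.

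Genotype folds after and before culture were compared through their ratio, with an interval from the 4 counts. The interval lay above 1 for 2 of 50 members and below 1 for 9. The ratio was not computed for all genes, so these counts have no background share. Adamts8 had a ratio of 4.72 (1.40 to 16.0, with 3 counts in place of 0) and Adamts16 of 3.03 (1.53 to 5.99). Mmp28 had a ratio of 0.372 (0.230 to 0.601), Adamts2 of 0.444 (0.232 to 0.851), Mmp14 of 0.763 (0.685 to 0.850) and Mmp15 of 0.768 (0.671 to 0.879). With library totals in place of TMM the interval lay above 1 for 4 members and below 1 for 4, the 6 genes named here included, and with background subtracted it lay above 1 for 1 member and below 1 for 2.

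Over the 33 members tested in all 4 comparisons, the median size of the log2 fold was 0.67 for culture in mutant cells, 0.76 for culture in wild type cells, 0.18 for genotype before culture and 0.21 for genotype after culture. Over the 12221 genes tested in all 4, it was 0.55, 0.76, 0.19 and 0.25 in the same order.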

How the data were processed

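The authors deposited 1 table of raw counts per gene symbol for each library; per the submitters' processing notes the authors used bcl2fastq, STAR and HTSeq 0.11.2 on mm10, and per the names of the deposited tables duplicates were removed with sambamba. The annotation behind the counts is not given in the sources used here, nor is the strand setting. Per the labels' protocols, the libraries were stranded, from a low-input kit for total RNA, and single.

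The 5 summary classes of HTSeq were left out of totals. Of uniquely aligned pairs, 74.2% and 66.7% lay in no gene in mutant and wild type cells after culture, and 85.8% and 89.3% in mutant and wild type cells before it. Counts were scaled with TMM in edgeR 4.0.16 (R 4.3.3). Levels have exact Poisson intervals and folds have Clopper-Pearson intervals, each at 95%. A background was fitted to receptor genes by exon length and exon number (GENCODE vM21 models for 22857 symbols); the planned version, by length alone, is an alternative, and the exon term was added after the data had been seen because multi-exon silent families exceeded it. Other alternatives were DESeq2 1.42.0 size factors, library totals, other count minimums, a 1.5-fold threshold and 3 counts in place of 0. An additive fit, with 1 residual degree of freedom, was not run. The fold procedure was tested on simulated data. Members and lists were chosen with earlier results of these data known. Members named were those called in a comparison, the 8 highest per kb in a library, the 4 Timp genes, Adamts3 and Adamts8 (20 in all); Adamts4, Adamts5, Adamts7, Adamts12, Adamts14, Adamts16, Mmp8, Mmp11, Mmp28 Vegfc, markers at 0 and the chromosome 9 cluster were named after their values were seen. Of each other list, at most 4 genes called in a comparison were named.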

Additional observations from a re-analysis of the deposited data

Results flagged for a closer look

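The mutant over wild type fold of 2 members lay on opposite sides of 1 in the 2 culture states, with neither interval holding 1. Adamts16 had a fold of 2.32 after culture (62 counts in mutant and 11 in wild type cells) and of 0.765 before it (167 counts in mutant and 118 in wild type cells). Mmp28 had a fold of 0.574 after culture (60 counts in mutant and 43 in wild type cells) and of 1.54 before it (191 counts in mutant and 67 in wild type cells). The intervals of the ratio of these folds cover counting error only, and with 1 library a group the difference was not tested over replicates. With background subtracted the interval of Adamts16 held 1 in both states, and that of Mmp28 did not in either.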

How the results depend on the processing

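With library totals in place of TMM, all log2 folds moved by -0.45 for culture in mutant cells, -0.62 for culture in wild type cells, -0.11 for genotype before and 0.07 for genotype after culture. The median log2 fold of the members then became -1.08 in mutant and -1.33 in wild type cells, and 15 members were called lower in wild type cells. At 1.5-fold, 3 members were called higher in mutant cells, and 5 higher and 12 lower in wild type cells. The shares of all genes called at 1.5-fold or with library totals were not computed. With background by length and exons subtracted, the median was -0.25 for culture in wild type cells and 0.17 for genotype before culture. The single genotype call after culture fell to 0 with either background subtracted, with a minimum of 50 counts and with 3 counts in place of 0. Members with the ratio of genotype folds above and below 1 numbered 4 and 4 with library totals, 1 and 2 with background by length and exons subtracted, and 3 below 1 with background by length. The other 103 values stayed within 1.5 times or their interval; among folds of named members 639 stayed within their interval and 101 left it, and no called fold changed side. No paired test was possible, because each genotype holds 1 library before and 1 library after culture. An additive fit over the 4 libraries was left out. Counts under about 20 in the smallest library limit the genotype comparison after culture.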
